A study of Mus musculus with 12 samples.

Results

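The genes described here are 8 ligands, receptors and modulators of blood vessel growth: Pgf, Flt1, Nrp1, Nrp2, Tek, Angptl4, Efnb2 and Thbs2. They were taken by name: every probe whose only gene symbol in the array's annotation was one of these was used, which gave 11 probes of 28704 on the array, or 11 of the 18511 probes with 1 symbol. Vessels grow when ligands of the vascular endothelial growth factor (VEGF) family bind receptor tyrosine kinases on endothelial cells. Pgf, placental growth factor, is a ligand of the receptor Flt1, and the neuropilins Nrp1 and Nrp2 are co-receptors for VEGF ligands and receptors for class III semaphorins. Osteoblasts secrete VEGF family ligands, and bone formation and vessel growth are linked in the skeleton.

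The study compared MC3T3-E1 cells under fluid shear and at rest. MC3T3-E1 is a mouse calvarial line with osteoblast features, kept as a clone. The 6 shear samples came from confluent monolayers on glass slides in a parallel plate chamber, exposed for 5 h to flow pulsing at 1 Hz with a mean shear of 5 dyn/cm2. The 6 control samples came from cells kept static in the same setup. All cells were grown with 5% fetal bovine serum and switched to 1% for the experiment, and no group carried a genetic change. The title of the series names shear and the gene for vascular endothelial growth factor, and Vegfa itself was not analysed here. Separate cultures are not stated for the samples, so the p-values below reflect how far these samples differed, possibly for technical reasons alone.

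Each of 6 spotted 2-colour arrays took 2 samples of the same condition, 1 labelled with Cy5 and 1 with Cy3, so each condition rests on 3 arrays and the number of arrays limits the precision. Values are log2 signals relative to the median of a block of 598 features in the same sample, so 0 is the typical signal of a sample. Between 64.2% and 82.9% of the features had a value per sample. The array of control replicates 3 and 4 had the fewest, with 72.9% and 64.2%. Each block was compared, sample by sample, with the median of the other arrays at displacements of up to 60 features. The same feature gave the best correlation in 574 of 576 combinations of block and sample. The exceptions were control 1 and control 2 in the block that holds the Efnb2 probe, where a displacement of 26 features, 1 row of the block, gave a correlation of 0.95 in both, against 0.43 and 0.40 at the same feature. The array of shear replicates 3 and 4 showed the same displacement in the row of the Efnb2 probe. Over the whole block it was mixed, with correlations of 0.71 and 0.67 at the same feature and 0.66 and 0.67 at the displaced one. The blocks of the other members had no such displacement in any of 120 combinations. A scan of a whole block can miss a displaced row, as in shear 3 and 4. The features around each of the other member probes were therefore scanned at displacements of 1 feature and 1 row. The same feature fitted best in all 120 combinations, with correlations of 0.673 to 0.977, lowest for Flt1 probe 20642 in control 4. Around the Efnb2 probe this scan was best at 26 features later in control 1, control 2 and shear 3 (0.81 in shear 3). In shear 4 it was best at 26 features earlier (0.805). The row of the Efnb2 probe alone is described below.

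The genes lie on 6 mouse chromosomes in build GRCm38.p6 of the RefSeq annotation: Pgf at chr12:85166637-85177785, Flt1 at chr5:147561604-147726438, Nrp1 at chr8:128358591-128505476, Nrp2 at chr1:62703317-62818692, Tek at chr4:94739086-94874976, Angptl4 at chr17:33774900-33781575, Efnb2 at chr8:8617235-8661242 and Thbs2 at chr17:14665500-14694262. The probes report on transcripts of these genes, and the part of the transcript that each probe matches is not given in the sources used here. RefSeq promoters were matched for 7 genes, all but Angptl4. The 250 bases before a start site are shown for Flt1 and Nrp1, the receptor and the co-receptor that bind the ligand Pgf and that had several probes each. The Flt1 stretch lies at chr5:147726012-147726261 on the minus strand and the Nrp1 stretch at chr8:128358823-128359072 on the plus strand. Both lie within the annotated span of their gene, upstream of the start site that RefSeq's promoter table uses. Capitals mark the cyclic AMP response element in Flt1 and the GC box in Nrp1.
Flt1: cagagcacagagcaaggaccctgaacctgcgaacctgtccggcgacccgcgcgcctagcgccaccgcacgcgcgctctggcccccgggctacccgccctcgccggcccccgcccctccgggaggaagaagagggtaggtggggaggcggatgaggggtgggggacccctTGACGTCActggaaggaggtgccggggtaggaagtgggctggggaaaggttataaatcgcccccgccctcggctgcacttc
Nrp1: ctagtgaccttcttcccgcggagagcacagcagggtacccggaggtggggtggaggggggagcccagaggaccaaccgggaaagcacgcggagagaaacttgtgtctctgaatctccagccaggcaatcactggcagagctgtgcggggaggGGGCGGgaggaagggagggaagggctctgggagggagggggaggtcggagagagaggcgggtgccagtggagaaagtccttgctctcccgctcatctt

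The following motifs were searched on both strands of these windows: the hypoxia cores ACGTG and GCGTG, which share their last letters, the cyclic AMP response element TGACGTCA, the AP-1 site TGACTCA, the CCAAT box CCAAT and the GC box GGGCGG. Among 32851 promoters in the table, 16.6% held ACGTG, 28.2% GCGTG, 1.55% TGACGTCA, 4.46% TGACTCA, 33.8% CCAAT and 32.7% GGGCGG. Flt1 held TGACGTCA with its first base 81 bases before the start, and among the 7 genes it was the only one with this motif. Nrp1 held GGGCGG 98 bases before its start and GCGTG on the other strand. GCGTG was also found for Nrp2, Flt1 and Pgf, CCAAT for Efnb2 and Thbs2, and GGGCGG for Nrp2, Flt1, Efnb2 and Pgf. No window held ACGTG or TGACTCA. These matches describe letters in the windows and were not tied to the expression values.

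Most members gave signals well above the dimmest features of their sample, and Pgf did not. The level of a probe was described by its percentile among all values of its sample. Pgf had a median percentile of 6.6 in shear samples and 6.4 in control samples. Its net fluorescence was 32 to 176 in shear and 38 to 143 in control samples. Pgf was therefore close to the 5th percentile of its samples, the level used here for the lowest measured signals, in both groups. Tek, the receptor for angiopoietins and a marker of endothelial cells, had a median percentile of 25.2 in shear and 27.8 in control samples, 0.80 to 1.91 and 0.65 to 2.02 above that level on the log2 scale. Angptl4, a secreted inhibitor of lipoprotein lipase, had a median percentile of 34.2 in shear and 9.7 in control samples. The brighter Flt1 probe, both bright Nrp1 probes, and the Nrp2, Thbs2 and Efnb2 probes had medians of 70.0 to 95.4 in shear and 56.8 to 89.6 in control samples. The Efnb2 medians include shear 3, shear 4, control 1 and control 2, whose row was displaced, at 98.9 to 99.9. Its other samples lay at 82.2 to 95.7. Percentiles of different probes were not read as relative amounts of RNA.

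**Figure D1:**
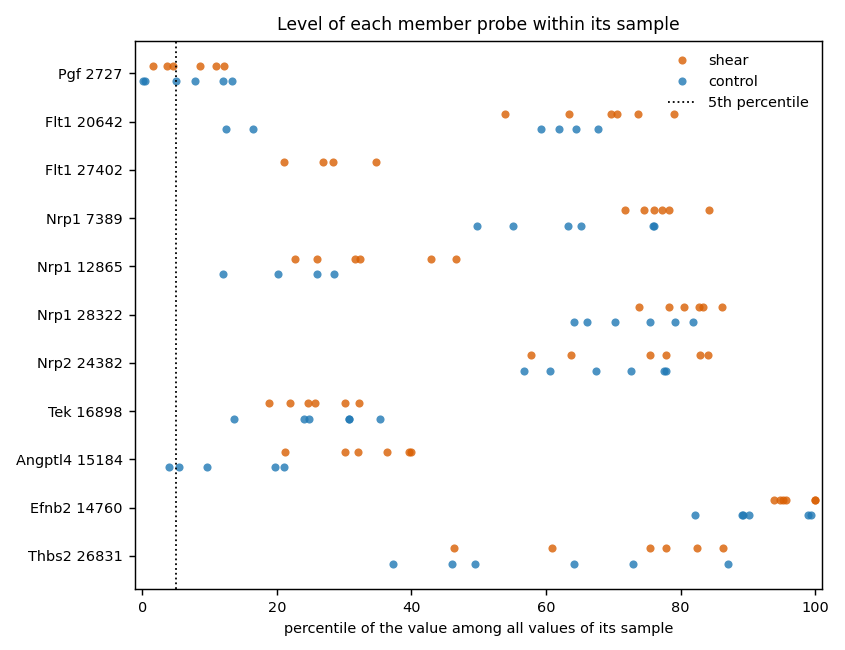
Percentile of each member probe among all values of its sample, with 1 point per sample, shear above control, and the 5th percentile dotted. Pgf lies at 0.1 to 13.3, and the Angptl4 points of shear, at 21.2 to 39.9, lie above those of control, at 4.0 to 21.0. Efnb2 lies at 82.2 to 99.9, where the points at 98.9 to 99.9 are samples with a displaced row.

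A probe was tested when both groups had at least 4 samples with a value, which 10 of the 11 member probes did, covering all 8 genes. None of the 10 passed an adjusted p of 0.05 in limma, against 1.62% of all 21883 probes tested. Of the 10, 3 had an unadjusted p under 0.05 (Angptl4, Flt1 and Nrp1 probe 7389), against 14.6% of all probes. Changes, given as shear minus control on the log2 scale, were above 0 for 9 of the 10, against 60.0% of all probes. Their median was 0.61, against 0.10 for all probes, and 8 of 10 lay above that value for all probes. A level in these bulk samples cannot tell fewer expressing cells from less RNA per cell. With cyclic loess scaling the median of all probes was -0.02, the median of the members was 0.52 and 8 of 10 were above 0. All these counts and medians include the Efnb2 change with all arrays, which holds displaced values and was not read as Efnb2 signal. Nrp1 supplied 3 of the 10 probes, so the 10 do not stand for separate genes.

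**Figure D2:**
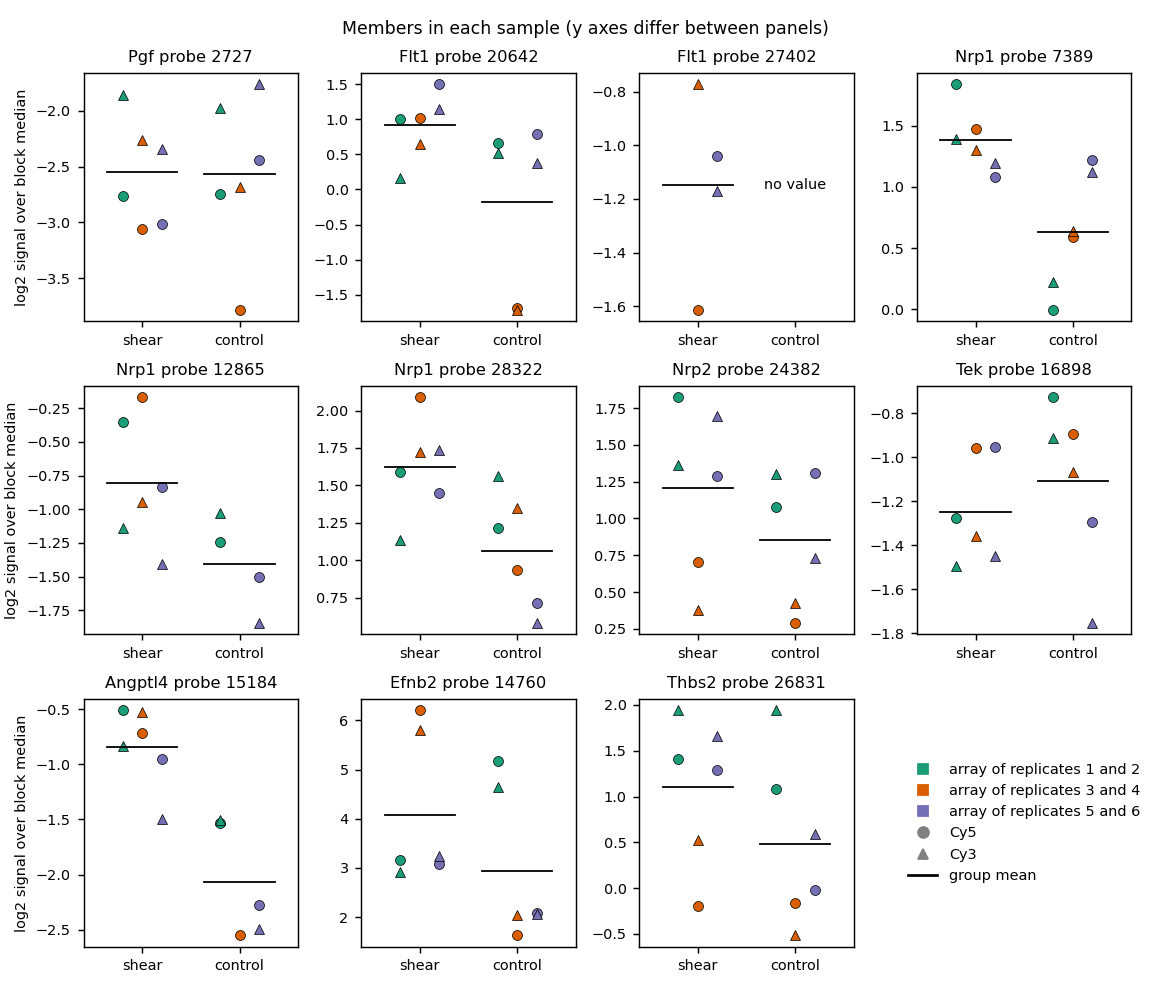
Log2 signal of each member probe in every sample, shear left of control, with colours for arrays, circles for Cy5, triangles for Cy3 and a line at the group mean. Angptl4 is the 1 tested probe whose groups do not overlap, and samples of 1 array often lie together.

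**Figure D3:**
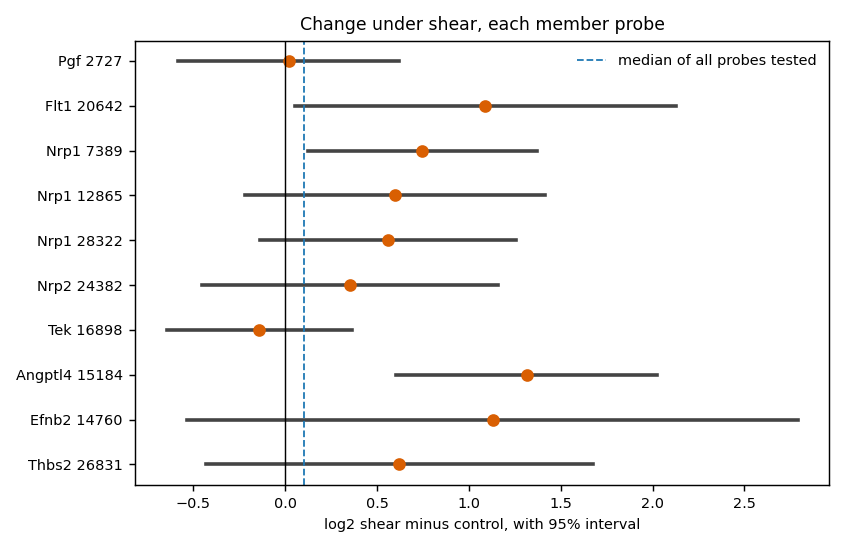
Log2 change, shear minus control, of the 10 tested member probes with its 95% interval, and the median of all probes tested (0.10) dashed. The intervals of Flt1, Nrp1 probe 7389 and Angptl4 lie above 0, and none of the 10 passed after adjustment. The Efnb2 change shown includes values of a displaced row.

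The ligand Pgf showed no measurable change. Its log2 values were -2.76, -1.86, -3.06, -2.26, -3.01 and -2.34 in shear samples 1 to 6, against -2.75, -1.98, -3.78, -2.69, -2.44 and -1.77 in control samples 1 to 6. The groups overlapped over nearly their whole range, and control 3 was the lowest sample of all. The mean was -2.55 ± 0.47 in shear and -2.57 ± 0.71 in control samples (SD, n = 6 each). The change was 0.02 ± 0.28 (SE), with a 95% interval of -0.58 to 0.62 and an adjusted p of 0.986 in limma. The sign of this change turned under several alternatives, among them cyclic loess, with -0.03.

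Flt1 binds VEGF and Pgf on endothelial cells, and its soluble form traps these ligands. The brighter of its probes, 20642, had log2 values of 1.00, 0.17, 1.02, 0.65, 1.50 and 1.15 in shear samples, against 0.66, 0.52, -1.69, -1.72, 0.79 and 0.38 in control samples. Control 3 and control 4, which share the array with the fewest measured features, were far below all others, and the remaining control samples lay within the range of the shear samples. The mean was 0.91 ± 0.46 in shear and -0.18 ± 1.19 in control samples (SD, n = 6 each). The change was 1.09 ± 0.49 (SE), with a 95% interval of 0.05 to 2.13 and an adjusted p of 0.314. Without the array of control replicates 3 and 4 it was 0.33, with an adjusted p of 0.647.

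The other Flt1 probe, 27402, had a value in 4 of 6 shear samples and in no control sample. The log2 values were -1.61, -0.77, -1.04 and -1.17 in shear samples 3 to 6, from 2 arrays, with net fluorescence of 226, 489, 103 and 359. All 4 lay at least 1.26 above the 5th percentile of their samples. The probe could not be tested. No source used here gives the rule that left features without a value, so no fold was computed. At least 4 shear values and no control value were found for 0.575% of all 28704 probes, and the opposite pattern for 0.251%.

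Nrp1 was covered by 3 probes, and all had a higher mean in shear than in control samples, though none passed the test. Probe 7389 had log2 values of 1.84, 1.39, 1.47, 1.30, 1.08 and 1.19 in shear samples, against 0.00, 0.23, 0.59, 0.64, 1.22 and 1.12 in control samples. Of the 6 shear samples, 4 lay above the highest control sample, and control 5 and control 6 lay within the shear range. The mean was 1.38 ± 0.26 in shear and 0.63 ± 0.48 in control samples (SD, n = 6 each). The change was 0.75 ± 0.29 (SE), with an adjusted p of 0.245. Without the array of control replicates 1 and 2 it was 0.49, more than 1.5 times smaller.

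Nrp1 probe 28322 had log2 values of 1.59, 1.13, 2.09, 1.72, 1.45 and 1.73 in shear samples, against 1.22, 1.56, 0.94, 1.35, 0.71 and 0.58 in control samples. Again 4 shear samples lay above every control sample, and control 1, 2 and 4 lay within the shear range, not control 5 and 6 as with probe 7389. The change was 0.56 ± 0.33 (SE), with an adjusted p of 0.465, and 0.35 without the array of control replicates 5 and 6.

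Nrp1 probe 12865 was dimmer, at a median percentile of 32.0 in shear and 23.0 in control samples. It had log2 values of -0.35, -1.14, -0.17, -0.95, -0.84 and -1.40 in shear samples, against -1.24, -1.03, -1.50 and -1.84 in control samples 1, 2, 5 and 6. Control 3 and control 4 had no value. The samples overlapped, but the array means did not, at -1.12 to -0.56 in the 3 shear arrays and -1.67 to -1.14 in the 2 control arrays with a value. Array means that do not overlap in this direction were seen for 15.2% of all probes. That share includes probes with values on 3 control arrays, so it is not a like background for 3 arrays against 2. The change was 0.60 ± 0.38 (SE, n = 6 shear and 4 control samples), with an adjusted p of 0.511.

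The changes of the 3 Nrp1 probes were tested against each other, as were all 9500 pairs of probes of 1 gene. The difference was 0.14 ± 0.46 (SE) between probes 7389 and 12865, 0.19 ± 0.41 between 7389 and 28322, and -0.0045 ± 0.37 between 12865 and 28322, with adjusted p-values of 0.975, 0.953 and 0.998. None of the 9500 pairs passed in limma, and 833 had an unadjusted p under 0.05. Across samples, the Pearson correlation was 0.78 between probes 12865 and 28322 over 10 samples, 0.36 between 7389 and 12865 over 10 and 0.21 between 7389 and 28322 over 12. These points share arrays, and the correlations are descriptions only.

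Nrp2, the co-receptor that also binds semaphorin 3F, had log2 values of 1.82, 1.37, 0.70, 0.38, 1.29 and 1.70 in shear samples, against 1.08, 1.30, 0.29, 0.43, 1.31 and 0.73 in control samples. The samples of replicates 3 and 4 were the lowest of each group, and the groups overlapped. The mean was 1.21 ± 0.56 in shear and 0.86 ± 0.44 in control samples (SD, n = 6 each). The change was 0.35 ± 0.38 (SE), with an adjusted p of 0.728. It was 0.11 without the array of control replicates 3 and 4, and 0.69 without that of shear replicates 3 and 4.

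Tek was the 1 tested member with a negative change. Its log2 values were -1.27, -1.50, -0.96, -1.36, -0.95 and -1.45 in shear samples, against -0.73, -0.91, -0.89, -1.07, -1.30 and -1.75 in control samples. The highest and the lowest value both came from control samples, and the groups overlapped. The change was -0.14 ± 0.24 (SE), with a 95% interval of -0.64 to 0.36 and an adjusted p of 0.844. Without the array of control replicates 1 and 2 the change was 0.0039.

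Angptl4, a target of PPAR factors and of hypoxia that acts on lipid uptake and on vessels, was the member with the smallest p. Its log2 values were -0.51, -0.84, -0.72, -0.52, -0.95 and -1.49 in shear samples, against -1.53, -1.51, -2.55, -2.27 and -2.49 in control samples 1, 2, 3, 5 and 6. Control 4 had no value. Every shear sample lay above every measured control sample, though shear 6 was close to control 1 and control 2. A complete separation in this direction was seen for 6.26% of all probes tested.

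The mean of Angptl4 was -0.84 ± 0.36 (SD, n = 6) in shear and -2.07 ± 0.51 (SD, n = 5) in control samples. The fitted change was 1.31 ± 0.33 (SE), a ratio of 2.49, with a 95% interval of 0.61 to 2.02. Its unadjusted p was 0.00141 and its adjusted p was 0.0673 in limma over all probes, which misses the threshold of 0.05. The signals were dim, with net fluorescence of 132 to 739 in shear and 70 to 225 in control samples, and control values lay -0.09 to 1.22 relative to the 5th percentile of their samples on the log2 scale. The array means ran from -1.22 to -0.62 in shear and from -2.55 to -1.52 in control arrays. That separation is among the 15.2% given for probe 12865, and an exact permutation test over 3 arrays against 3 cannot give a two-sided p below 0.1. In the fit on array means the change was 1.31 with an adjusted p of 0.130. The call depended on how the fit treated the arrays and dyes: without the array as a block the adjusted p was 0.00959, and without the dye term it was 0.0385.

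Efnb2 encodes ephrin-B2, a membrane-bound ligand of EphB4 that marks arterial endothelium. Its log2 values were 3.16, 2.92, 6.21, 5.81, 3.07 and 3.24 in shear samples, against 5.18, 4.65, 1.62, 2.05, 2.08 and 2.06 in control samples. The array of shear replicates 3 and 4 and the array of control replicates 1 and 2 stood apart within their groups. Their values came from a displaced row, and the mean and change that follow include them. The mean was 4.07 ± 1.51 in shear and 2.94 ± 1.55 in control samples (SD, n = 6 each). The change was 1.13 ± 0.78 (SE), with a 95% interval of -0.53 to 2.79 and an adjusted p of 0.547. It was 0.16 without the array of shear replicates 3 and 4, and 2.12 without that of control replicates 1 and 2.

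The 4 high values at the Efnb2 probe came from samples in which its row of the block was displaced by 26 features. In the row of 26 features that holds the Efnb2 probe, the values of shear 3, shear 4, control 1 and control 2 correlated at 0.968, 0.981, 0.983 and 0.988 with the features 26 places later on the 4 other arrays. Their correlations with the same features were 0.693, 0.817, 0.651 and 0.780. The feature 26 places after the Efnb2 probe is annotated as Pmpca, a subunit of the mitochondrial processing peptidase. Pmpca had log2 values of 5.46, 5.51, 1.32, 1.30 and 5.99 in shear samples 1 to 5, against 1.20, 0.68, 5.93, 5.35, 5.62 and 5.04 in control samples. The value at the Pmpca feature was low in the same 4 samples in which that at the Efnb2 probe was high. This was not read as opposite expression of the genes. The 4 high values at the Efnb2 probe, 4.65 to 6.21, lay near the levels of Pmpca in the other samples. They were therefore not read as Efnb2 signal, nor was the change with all arrays, which includes them.

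Without those 2 arrays, a choice made after the displacement was seen, Efnb2 had log2 values of 3.16, 2.92, 3.07 and 3.24 in shear samples, against 1.62, 2.05, 2.08 and 2.06 in control samples. The groups did not overlap, which was the case in this direction for 15.0% of the 17352 probes tested in these samples. The mean was 3.10 ± 0.14 in shear and 1.95 ± 0.22 in control samples (SD, n = 4 each, from 2 arrays each). The change was 1.15 ± 0.30 (SE), with an adjusted p of 0.162 in limma. The change of 1.13 with all arrays included the displaced values of both arrays left out here. Its closeness to 1.15 was therefore not read as agreement. Leaving out only 1 of these arrays gave 0.16 or 2.12. The standard error with all arrays was 0.78. In the same 8 samples the change was 1.51 for Flt1, 0.85 for Nrp2, 0.48 and 0.58 for Nrp1 probes 7389 and 28322, 0.18 for Pgf and -0.04 for Tek, and none passed. Thbs2 had 1.60 with an adjusted p of 0.132. Its own block was not displaced, and the 2 arrays left out held its lowest shear and highest control values.

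**Figure D4:**
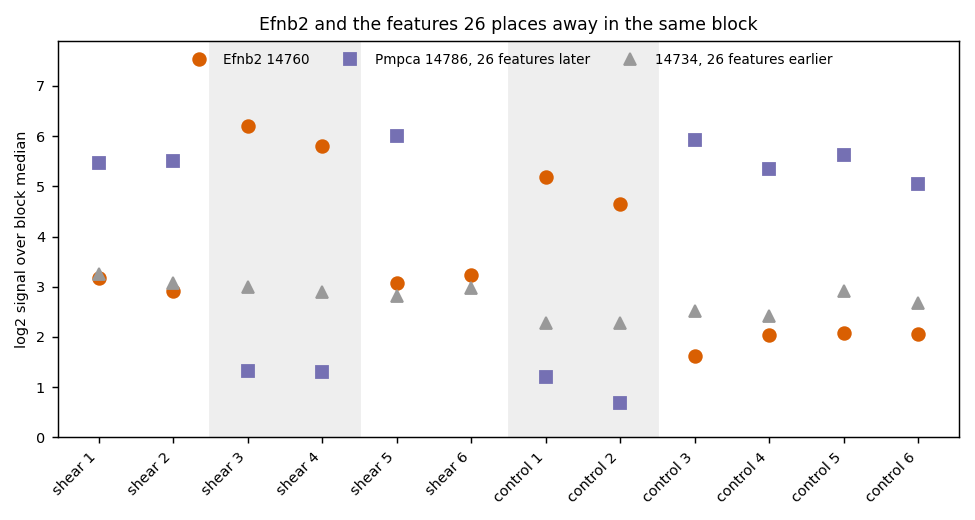
Log2 signal in each sample of the Efnb2 probe and of the features 26 places later (Pmpca) and earlier in the same block, with the arrays of shear replicates 3 and 4 and control replicates 1 and 2 shaded. In the shaded samples Efnb2 lies at 4.65 to 6.21 and Pmpca at 0.68 to 1.32.

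Thbs2, thrombospondin 2, is a secreted matrix protein that inhibits vessel growth. Its log2 values were 1.41, 1.94, -0.19, 0.52, 1.29 and 1.66 in shear samples, against 1.08, 1.94, -0.16, -0.52, -0.02 and 0.59 in control samples. Shear 3 and shear 4 lay among the low control samples, and control 2 was as high as the highest shear sample. The mean was 1.11 ± 0.80 in shear and 0.49 ± 0.91 in control samples (SD, n = 6 each). The change was 0.62 ± 0.49 (SE), with an adjusted p of 0.612. It was 0.21 without the array of control replicates 3 and 4 and 1.13 without that of control replicates 1 and 2.

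**Figure D5:**
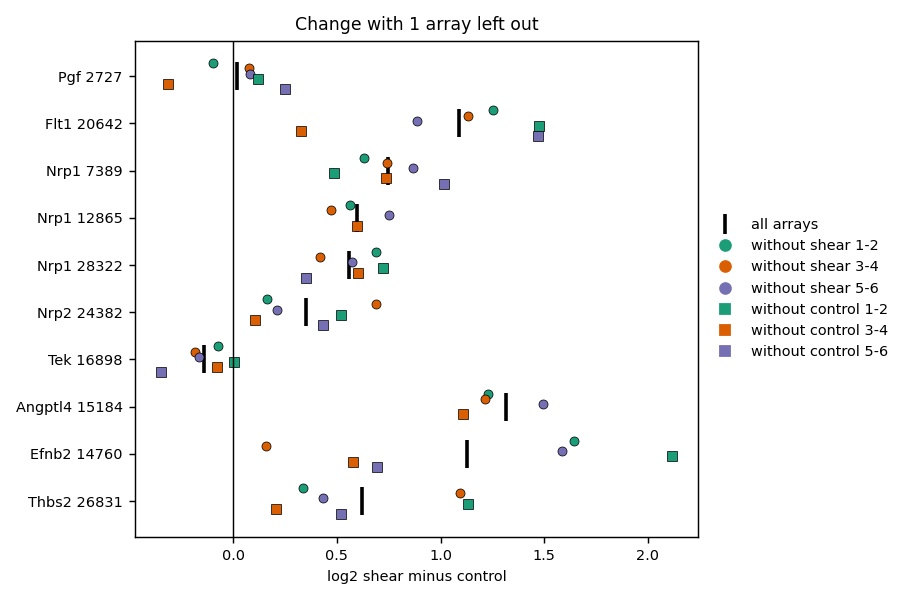
Log2 change, shear minus control, with all arrays (bar) and with each array left out in turn (circles for shear arrays, squares for control arrays), where enough values remained. Angptl4 runs from 1.11 to 1.49, Flt1 from 0.33 to 1.47, Efnb2 from 0.16 to 2.12, and Tek and Pgf lie on both sides of 0. The Efnb2 changes include values of a displaced row.

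Dye differences were larger than the shear change for Pgf and Tek. Pgf was higher in the Cy3 than in the Cy5 sample of all 6 arrays, with a Cy5 minus Cy3 difference of -0.82 ± 0.11 (SE) and an adjusted p of 0.00407 in limma. Tek was higher in the Cy5 sample of all 6 arrays, by 0.32 ± 0.09 (SE), with an adjusted p of 0.0442. These were 2 of 10 member probes, against 10.8% of all probes. Each group holds 3 samples of each dye, and the dye was a term of the fit.

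Named genes with the most similar profile over the 12 samples differed from member to member. Pearson's r was 0.98 between Flt1 and both Ppip5k2 and Yy1. However, 215 probes reached r of at least 0.9 to Flt1, against 4 to 36 for the other member probes measured in all samples. Flt1 was far below its other values in control 3 and control 4, at -1.69 and -1.72. These 2 genes were therefore not read as particular to Flt1. Pearson's r was 0.95 and 0.93 between Nrp1 probe 28322 and Iqgap1 and Srsf1. It was 0.94 and 0.92 between Nrp2 and Sec11c and Zfp710, and 0.94 between Tek and both Exoc7 and Klf3. Thbs2 was most like Ndufa12 and Troap, at 0.93 and 0.92, and Pgf most like Pbld1 and Eif3a, at 0.93 and 0.90. Efnb2 was most like Gstp1 and Adam9, at 0.98 and 0.97, both from its own block. These Efnb2 correlations include the samples with displaced values and were not read as similar expression. Of the 36 probes with r of at least 0.9 to Efnb2, 22 lay in that block, which holds 156 of the 17080 probes measured in all samples. The points share arrays and dyes, and these values carry no test. Angptl4 was not compared in this way, since it lacked a value in 1 sample.

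Genes that work with the members were read from lists, 144 genes in all, of which 8 had a probe that passed. The lists were chosen with earlier results of these data known, and Slc2a1 and Hmox1 were named beforehand. The counts of genes that passed are therefore descriptions only. For a gene with several probes, the value given is that of the probe with the smallest p. Of all probes tested, 1.42% passed with a higher and 0.201% with a lower signal in shear. A gene was counted if any of its probes passed, so these shares per probe are not a like background for counts of genes. No share per gene was computed. Among VEGF ligands and receptors, the 4 genes tested were Pgf, Flt1, Nrp1 and Nrp2, with a median change of 0.58 over their probes, and the receptor Flt4 had no value in any sample. In VEGF receptor signalling, 23 genes were tested with 47 probes, and 2 genes rose and 1 fell. Mapkapk2, a kinase downstream of p38, rose by 1.44 ± 0.26 (SE, adjusted p 0.0159), with 0.38 to 0.75 at its other probes. Shb, an adaptor protein of VEGF receptors, rose by 0.99 ± 0.22 (adjusted p 0.0357), a call that was lost with cyclic loess. Pik3r1, the regulatory subunit of phosphoinositide 3-kinase, had a change of -1.77 ± 0.39 (adjusted p 0.0370), with -0.92 to -0.86 at its other probes. None of these 3 calls held in the fit on array means. The list's median change over probes was 0.20, against 0.10 for all probes. Sphk1, Shc1 and Bad, with changes of 1.11, -1.58 and 0.78, did not pass. The other Sphk1 probe had 1.12, while the other Shc1 probes had 0.10 to 0.75 and the other Bad probe -0.27, opposite in sign.

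No gene passed among 19 semaphorins and plexins, ligands and partner receptors of the neuropilins, with a median change of 0.00. Of these, Plxna2 had a change of -1.11, with -0.0060 at its other probe, Plxna3 -1.03 and Sema4c 0.78. None passed among 5 genes around the angiopoietins and Angptl4, where Tnip2 had -0.34 and Dok2 0.31, or among 7 ephrins and Eph receptors, where Ephb6 had -0.76 and Efna2 -0.51. The medians of these lists were 0.29 and -0.01, and the second includes the Efnb2 change with all arrays. Among 12 thrombospondins, their receptors and other inhibitors of vessel growth, 1 rose. Timp3, an inhibitor of metalloproteinases that also blocks VEGF binding to its receptor Kdr, rose by 2.24 ± 0.32 (SE, adjusted p 0.00377), and its other probe had 2.02. In the same list Adamts1 had a change of 1.08 and the thrombospondin receptor Cd47 -0.51, and the median was 0.24.

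Among 10 PDGF, FGF and related growth factor genes, Ccn1, a matrix-associated angiogenic protein, rose by 2.47 ± 0.48 (SE, adjusted p 0.0199), and the list's median was 0.00. Pdgfa, Pdgfc and Pdgfra had changes of 1.47, 0.75 and -1.10 and did not pass, and other Pdgfra probes ran from -1.19 to 0.14. Among 16 hypoxia targets, 2 rose and none fell. Hmox1, which degrades heme, rose by 4.37 ± 0.75 (adjusted p 0.0107), and Slc2a1, the glucose transporter, by 2.08 ± 0.33 (adjusted p 0.00646), with 1.96 at its other probe. The median of that list was 0.28, and Pfkfb3, Bnip3l and Ndrg1 had changes of 0.84, -0.81 and 0.66, with -0.63 to 0.23 at other Bnip3l probes. No gene passed among 13 members of the hypoxia factor machinery (median -0.03, with Arnt at -1.54, Cited2 at 0.75 and Egln1 at 0.61) or among 9 Notch pathway genes (median 0.25, with Rbpj at -0.89, Notch1 at -0.61 and Jag1 at 0.49). None passed among 12 PPAR targets and partners, which share regulators with Angptl4 (median -0.05, with Plin2 at -1.55, Slc25a20 at 0.66 and Rxra at -0.64). In the fit on array means, 4 of the 8 called genes passed, Timp3, Ccn1, Hmox1 and Slc2a1.

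Flt1 and Tek are also markers of endothelial cells, so the marker lists stand beside them. Endothelial markers were represented by 13 genes, of which Tie1, Icam2 and Sox17 had no value in any sample. The median percentile of the 8 endothelial probes measured in all samples was 46.4 to 56.6 in shear and 40.0 to 49.1 in control samples. These 8 include Flt1 probe 20642 and Tek. Single probes of these 8 had medians of 20.9 to 83.1 in shear and 27.8 to 81.4 in control samples, with Cldn5 the highest in both. The list has 21 probes. Those with a value in only some samples had medians of 3.0 to 32.0 in shear and 2.5 to 40.1 in control samples. Cdh5 probe 20533 was the lowest of them and Eng probe 27765 the highest. Probes of 1 marker could disagree, as for Cdh5, with 1 probe at a median percentile of 68.9 in shear and 67.8 in control samples and another without a value in any sample. None of 10 tested endothelial genes passed; Eng had a change of 0.80 at 1 probe and -0.39 at the other, Plvap had -0.68, and the list's median was 0.10. The median percentile of the 8 osteoblast probes measured in all samples, of 13 on the array, was 62.8 to 87.3 in shear and 55.2 to 89.0 in control samples. Single probes of these 8 had medians of 22.2 to 99.6 in shear and 21.0 to 99.5 in control samples, with Alpl the lowest and Sparc the highest in both. Other probes of Sparc and Dlx5 and the Bmp4 probe had no value in any sample. The Pth1r probe had a value in 1 shear sample only. Of 5 tested osteoblast genes, Dlx5, an osteoblast transcription factor, had a change of -0.97 ± 0.23 (SE, adjusted p 0.0479) and passed, but not in the fit on array means. Col1a2, Sparc and Col1a1 had 0.45, -0.71 and -0.25, with 0.11 at the other Sparc probe, and the list's median was 0.03. None of 4 tested macrophage genes passed, with Fcer1g at -0.54 (0.34 at both other probes), Tyrobp at 0.28, Cd68 at 0.29 and a list median of 0.28. The median percentile of the 4 macrophage probes measured in all samples, of 9 on the array, was 50.1 to 66.5 in shear and 47.0 to 63.3 in control samples. The part of other cells in the values of Flt1 and Tek was not tested.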

How the data were processed

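The deposited values, made by the authors, are log2 signals for 12 samples. Taken out of the log and scaled by block of 598 features (48 blocks), 100.0% were whole numbers within 0.002, so each is a net fluorescence over its block median. Scanner, background correction and the handling of missing values were not given in the sources used here. A change shared by every gene would not show. Per the labels, odd replicates carried Cy5 and even ones Cy3. The samples on 1 array (replicates 1-2, 3-4 and 5-6 in each group) were inferred from the dyes and the design. Over features measured in all samples, samples of 1 array correlated at 0.954 to 0.981 (Pearson), and samples of a group on different arrays at 0.873 to 0.915.

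Probes were named from the platform annotation, dated November 2007, with symbols updated through the Entrez number. Each probe kept its own row. limma 3.58.1 in R 4.3.3, with statmod 1.5.0 and the data.table package (version 1.17.8), modelled group and dye, with the array as random block (correlation 0.727). Benjamini-Hochberg adjustment ran over 21883 probes, with a threshold of 0.05. Each array held 1 group, so the degrees of freedom count samples and p-values can be too small, and the fit on array means was an alternative. Changes are shear minus control, with the moderated standard error. Tables were made in Python 3.11.15 with pandas 2.3.3 over numpy 2.4.6, and plots with matplotlib 3.10.9.

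The members, lists, tests and genes to name were chosen with earlier results of these data known. The rule named every member probe, the 2 most correlated named genes per member with a probe measured in all samples, and from each list the genes that passed and up to 3 more by smallest p. On simulated data of 21883 features, the fit found 5% of 100 features given a log2 change of 1 and 80% of 100 given a change of 2, with 4 false calls among 89. Median net fluorescence per sample was 243 to 868.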

Additional observations from a re-analysis of the deposited data

Results flagged for a closer look

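The Flt1 probe 27402, which entered no comparison, had a mean log2 value of -1.15 in 4 shear samples and no value in control samples. It was singled out because it gave a signal in shear samples only. The 21 groups of 4 to 6 values of the member probes, this one included, were also examined for a single sample far from the rest, and 0 held one. This cannot flag an array that stands apart, since its samples lie close to each other. For Efnb2 the gap to the nearest sample was 0.121 of the range for shear 3 and 0.15 for control 1, both from displaced arrays.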

How the results depend on the processing

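The changes of the members were computed under 34 alternatives, 2 of them chosen after the displaced block was seen. Of 322 values, 310 kept their direction and their side of the threshold, 9 changed sign and 3 passed. Pgf had -0.031 with cyclic loess, -0.117 centred on probes measured in all samples, -0.0025 with an offset of 50, and -0.314 to 0.251 with a sample or array left out. With a sample or array left out Tek had -0.348 to 0.0039. Nrp1 probe 7389 (0.75, adjusted p 0.0467) and Angptl4 (1.24, adjusted p 0.00959) passed without the array block, and Angptl4 without the dye term (1.28, adjusted p 0.0385). The adjusted p of Angptl4 ran from 0.00959 to 0.216 over its alternatives, and too few control values remained to fit it without the array of control replicates 1 and 2 or of 5 and 6. Called probes numbered 354 over all probes, 106 with array means, 2664 without the array block, 558 without the dye term, 235 with quantile normalization, 232 with 1 probe per gene, 46 without both arrays of the displaced block, and 76 to 368 with a sample or array left out. Of these calls, 87.6% were higher in shear, and 70.0% with cyclic loess. Same-numbered samples of the 2 groups correlated at -0.091 to 0.116, so the numbers were not taken as pairs. With the replicate number as a block, 163 probes passed and no member did, and the difference between Nrp1 probes 12865 and 28322 was 0.0133. Of pairs of probes, 368 passed without the array block, 9 without the dye term, and 0 to 9 with a sample or array left out. With a sample or array left out, the difference was -0.238 to 0.664 between Nrp1 probes 7389 and 28322 and -0.165 to 0.138 between 12865 and 28322. Called genes of the lists numbered 8, with 7 under cyclic loess, where Shb was lost, and 4 with array means. The median percentile among probes measured in all samples was 0.3 for Pgf and 11.3 for Tek. With the offset of 50 on net fluorescence Angptl4 had 1.00, the lowest of its alternatives, with an adjusted p of 0.0902 in limma. Pgf, Tek and Angptl4 were too dim to enter the fit without the dimmest 25% of probes. Beyond these alternatives, the effect of signal over background on these changes was not tested.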
